A study of Mus musculus with 16 samples.

Results

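Bile acids are made in the liver from cholesterol. After the first hydroxylations, further enzymes remodel the steroid ring, shorten the side chain in the peroxisome and join the finished acid to taurine or glycine. The 10 genes described here encode those later steps and were listed by their function in the pathway. Hsd3b7, Akr1d1 and Akr1c6 act on the ring. Amacr, Acox2, Hsd17b4 and Scp2 serve side chain shortening. Slc27a5, Baat and Acot8 handle the coenzyme A thioester and the amide bond. All 10 were found by Ensembl identifier among the 13006 genes of the deposited table, and all 10 passed the filter on low counts.

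Liver RNA was sequenced from mice labelled Humanized PXR-CAR-CYP3A4/3A7, a genotype shared by every group, in which human versions of xenobiotic receptors and of drug-metabolising enzymes are carried. EM mice were injected under the skin for 7 days with 10 mg/kg of the synthetic estrogen ethinylestradiol (EE), which impairs bile flow, in propylene glycol. From day 2 they were also gavaged for 6 days with 2.5 mg/kg of MI763F, a CAR ligand. EV mice received EE alone at that dose. CM mice received MI763F alone at that dose. CV mice received the propylene glycol vehicle. Each group held 4 libraries. The sources used here do not give age or sex and do not tie each library to its own animal. The p-values therefore measure the spread between these samples, which may be technical. Whether EV and CV mice were gavaged with the carrier of the ligand is likewise not given.

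In the normal liver, ring remodelling precedes peroxisomal side chain shortening, and the shortened acid leaves the pathway as a coenzyme A thioester. Baat transfers taurine or glycine to that thioester. Bile acids that return from the intestine unconjugated have to be activated again by Slc27a5 before Baat can conjugate them. Acot8, in contrast, is a thioesterase that can split coenzyme A thioesters. Side chain enzymes also act on branched fatty acids, so they are not particular to bile acids.

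Libraries held 14115384 to 21473227 estimated counts. Values of the 10 genes lay between 265 and 43476 estimated counts per library. The leading principal component carried 48.3% of the variance and set the 8 libraries with EE apart from the 8 without it. EM replicate 1, at 62.6, lay nearer to the EV libraries (66.7 to 75.4) than the other EM libraries did (37.1 to 46.7), and CM replicate 2 stood apart on the second component (-58.9, against -16.1 to -7.98 for the other CM libraries). Libraries were scaled with TMM factors of 1.10 to 1.23 with EE and 0.833 to 0.910 without it. Levels below are CPM, counts scaled to a common library size, on that scale, and fold changes and adjusted p come from edgeR (quasi-likelihood test, adjusted by Benjamini and Hochberg's method over all 12918 genes tested), called at an adjusted p under 0.05.

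With EE alone, 7 of the 10 genes fell and 0 rose. Over all genes 24.9% were called lower and 25.5% higher in EV than in CV. The falls covered all 3 ring genes, the activation and conjugation genes Slc27a5 and Baat, and, by less, Scp2 and Amacr. Acox2, Hsd17b4 and Acot8 did not pass. The median log2 fold change of the 10 was -0.85, against 0.00 over all genes tested. In 6 of the 10 every EV library lay below every CV library, which held for 22.7% of all genes. At an unadjusted p under 0.05, 1 gene was higher, Acox2, while DESeq2 and limma-trend called 0 genes higher. In bulk liver RNA, fewer hepatocytes and less RNA per hepatocyte cannot be told apart.

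**Figure D1:**
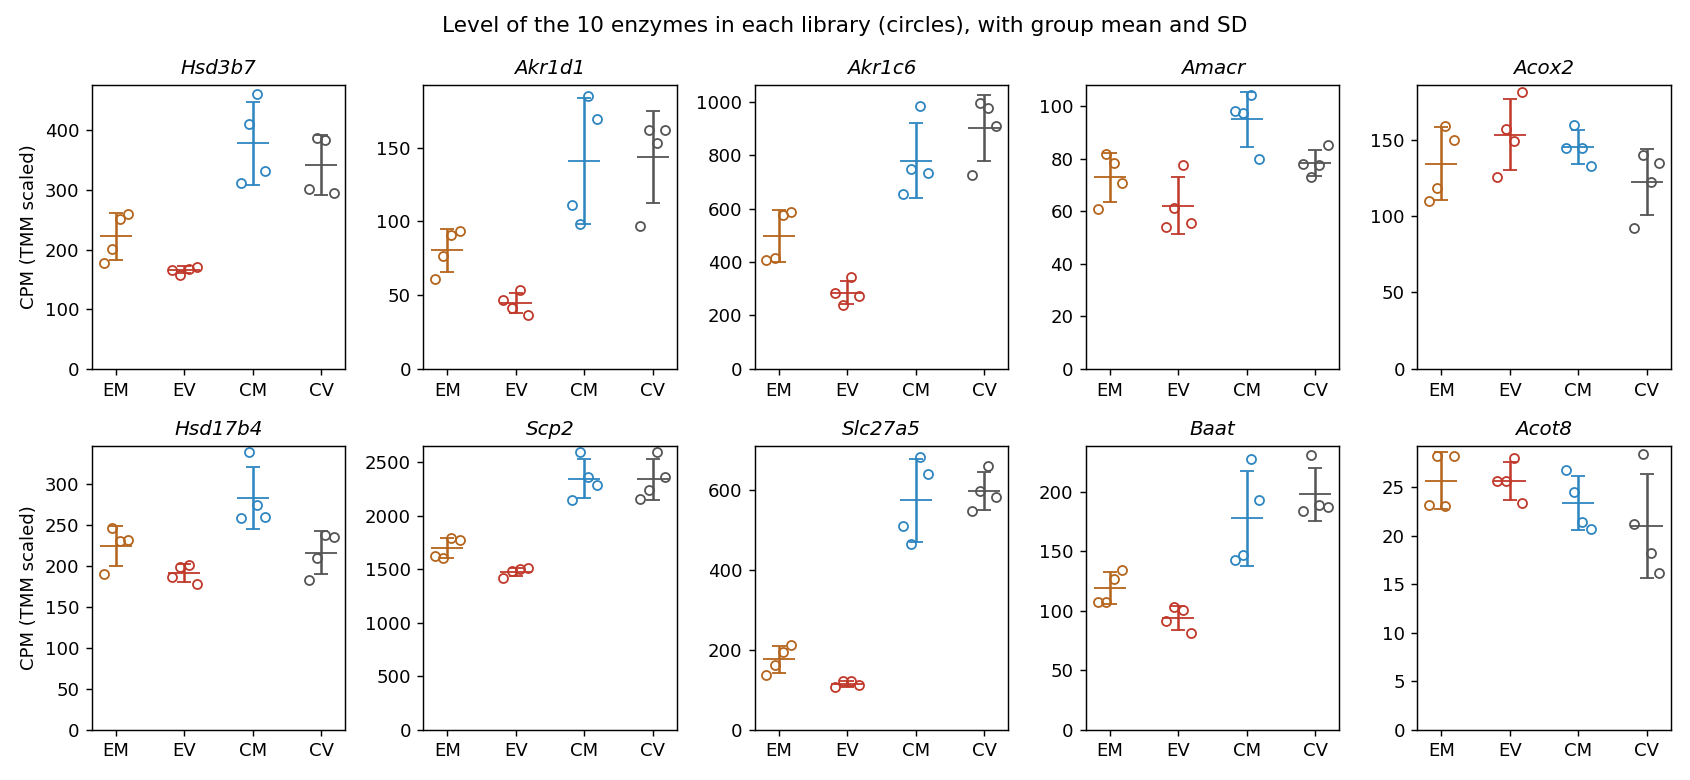
Level of each of the 10 genes in CPM on a linear axis from 0, with the 4 libraries of each group as circles (replicates 1 to 4 from left to right), the group mean as a bar and the SD as whiskers. Slc27a5 averaged 115 CPM in EV libraries and 598 CPM in CV libraries, while Acot8 averaged 25.6 CPM in EV libraries and 21.0 CPM in CV libraries, which overlapped.

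The share of calls depends on the scaling. With library totals in place of the TMM factors, the median of all genes shifted by 0.49 on the log2 scale in EV vs CV, and 5 of the 10 genes were called lower and 3 higher, against 7 and 0 with the factors. Over all genes 7048 were then higher and 1329 lower, against 3291 and 3222 with the factors. Hsd3b7, Akr1d1, Akr1c6, Slc27a5 and Baat were the 5 called lower under both scalings. Scp2 (-0.18, adjusted p = 0.072) and Amacr (0.14, adjusted p = 0.326) lost their calls with library totals, and Amacr changed sign. Under those totals Acox2 (0.81, adjusted p = 0.000231), Acot8 (0.78, adjusted p = 0.000158) and Hsd17b4 (0.31, adjusted p = 0.0328) were called higher, Hsd17b4 with a change of sign. Summed, the 10 genes took 0.306% to 0.322% of all estimated counts in EV libraries, against 0.377% to 0.457% in CV libraries.

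**Figure D2:**
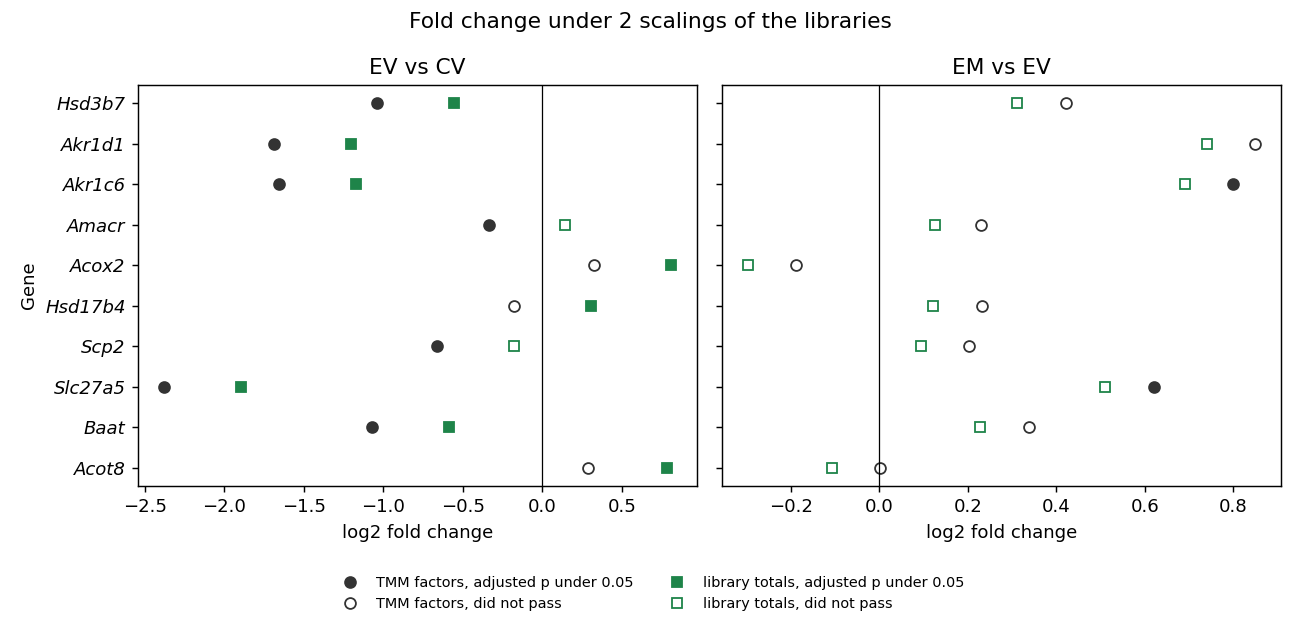
Fold changes (log2) of the 10 genes for the comparisons EV vs CV and EM vs EV, drawn with TMM factors (circles) and with library totals (squares), filled where the adjusted p was under 0.05. In EV vs CV the squares lie to the right of the circles, and Amacr and Hsd17b4 cross 0.

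Among the ring genes, Hsd3b7 encodes the dehydrogenase that oxidises the ring hydroxyl and moves the ring double bond, the step after the first hydroxylation. Hsd3b7 had 166, 158, 168 and 171 CPM in EV libraries, against 302, 386, 384 and 294 CPM in CV libraries. The groups did not overlap, and the EV libraries lay closer together than the CV libraries. Its log2 fold change was -1.04 ± 0.15 (SE, adjusted p = 3.04e-05). In the GENCODE M21 annotation 1717 bp of Hsd3b7 exon are shared with Gm49388 on the same strand, which was not analysed here, and 1729 bp with 9430064I24Rik on the opposite strand, so the reads behind this gene are uncertain to that extent.

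Akr1d1 encodes the reductase that saturates the ring double bond and gives bile acids their bent ring system. It had 47.0, 41.6, 53.2 and 36.8 CPM in EV libraries, against 97.2, 162, 153 and 162 CPM in CV libraries. CV replicate 1 lay well below the other CV libraries yet above every EV library. On the log2 scale the change was -1.68 ± 0.22 (SE, adjusted p = 1.69e-05), and it was -1.83 without CV replicate 1.

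Akr1c6 encodes an aldo-keto reductase that acts on hydroxysteroids, estradiol among them in mouse; in human, the related AKR1C4 reduces the ring ketone of bile acid precursors. Akr1c6 had 285, 239.5, 344 and 273 CPM in EV libraries, against 724, 994, 974 and 907 CPM in CV libraries. The groups lay far apart. The log2 fold change was -1.66 ± 0.17 (SE, adjusted p = 1.23e-06), close to that of Akr1d1. Because the Akr1c genes are near copies of each other, the sharing out of reads between them is uncertain.

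The upstream sequences of the 3 ring genes are given because these genes fell together. RefSeq's promoter table for GRCm38.p6 matched 6 of the 10 genes, and 250 bases before the annotated start are printed, 5′ to 3′ on the strand of the gene. The others were Amacr, Hsd17b4, Slc27a5 and Baat. The build named for the deposited values is GRCm39, and these coordinates are not converted to it. Capitals mark matches, on either strand, to the nuclear receptor sites AGGTCA and GGGTCA, the TATA box TATAAA and the box CCAAT, which stand in 13.8%, 11.5%, 13% and 34.5% of 27025 promoters of the same length.
Hsd3b7, chr7:127800359-127800608, plus strand: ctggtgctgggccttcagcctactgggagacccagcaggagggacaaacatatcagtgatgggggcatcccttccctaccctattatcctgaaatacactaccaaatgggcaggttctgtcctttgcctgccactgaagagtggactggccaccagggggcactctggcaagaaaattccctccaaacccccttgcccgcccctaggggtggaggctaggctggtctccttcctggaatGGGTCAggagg
Akr1d1, chr6:37529923-37530172, plus strand: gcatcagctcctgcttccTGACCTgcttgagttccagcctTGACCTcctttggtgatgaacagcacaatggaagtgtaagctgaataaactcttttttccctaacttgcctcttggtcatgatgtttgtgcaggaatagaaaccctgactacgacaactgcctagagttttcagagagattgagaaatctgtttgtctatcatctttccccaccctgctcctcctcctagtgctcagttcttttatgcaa
Akr1c6, chr13:4434093-4434342, plus strand: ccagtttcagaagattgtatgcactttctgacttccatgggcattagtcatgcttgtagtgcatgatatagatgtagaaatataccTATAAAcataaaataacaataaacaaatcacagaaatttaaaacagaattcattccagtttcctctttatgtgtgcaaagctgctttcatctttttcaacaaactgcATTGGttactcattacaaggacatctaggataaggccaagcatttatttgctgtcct
Akr1d1 held AGGTCA on the opposite strand with first bases at positions -232 and -210 from the start, and Hsd3b7 held GGGTCA at position -11. Akr1c6 held TATAAA at -164 and CCAAT on the opposite strand at -57, and was the most AT-rich of the 3 windows (34% G and C, against 45.2% for Akr1d1 and 58% for Hsd3b7). Longer motifs, which overlap the single sites, were searched as well: AGGTCA repeated directly with 1 or 4 bases between, AGGTCA then TGACCT with 1 base between, and GGTCA then TGACC with 3 bases between. None of these, each in at most 0.0629% of promoters, nor the HNF1 core GTTAAT, in 6.52%, had a match in these windows. Such matches are descriptions of the letters and not binding sites.

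The side chain genes had smaller fold changes. Scp2, whose longer product is the thiolase of the last peroxisomal step and whose shorter product is a sterol carrier protein, had 1421, 1480.2, 1499 and 1509 CPM in EV libraries, against 2157, 2247, 2598 and 2366 CPM in CV libraries. The groups did not overlap, and the log2 fold change was the smallest among the 6 genes for which this held. Its log2 fold change was -0.66 ± 0.08 (SE, adjusted p = 6.80e-06). Gene totals cannot separate the 2 products.

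Amacr, the racemase that turns the side chain into the form the oxidase accepts, had 54.0, 61.1, 77.7 and 55.6 CPM in EV libraries, against 78.1, 73.1, 77.7 and 85.0 CPM in CV libraries. EV replicate 3 lay within the range of the CV libraries. On the log2 scale the change was -0.34 ± 0.12 (SE, adjusted p = 0.0323). The call was lost without any 1 of EV replicates 1, 2 and 4 or CV replicates 1, 3 and 4, at adjusted p between 0.0511 and 0.0896.

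Acox2, the branched chain acyl-CoA oxidase of the pathway, had 125, 157, 149 and 181 CPM in EV libraries, against 91.9, 139.9, 122 and 135 CPM in CV libraries. The groups overlapped (log2 fold change 0.33 ± 0.15 SE, adjusted p = 0.0809), and the gene passed without EV replicate 1 (0.40, adjusted p = 0.0422). Hsd17b4, the peroxisomal bifunctional hydratase and dehydrogenase, ranged from 177 to 201 CPM in EV libraries and from 182 to 238 CPM in CV libraries, at a log2 fold change of -0.18 ± 0.11 (SE, adjusted p = 0.199).

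Slc27a5, the bile acyl-CoA synthetase that reactivates bile acids returning unconjugated, showed the largest fall of the 10. It had 106, 121, 121 and 111 CPM in EV libraries, against 548, 598, 662 and 584.4 CPM in CV libraries. The EV libraries lay close together and far below the lowest CV library. The log2 fold change was -2.38 ± 0.15 (SE, adjusted p = 1.58e-08), a level of 0.192 relative to CV.

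Baat, the amidating enzyme, had 91.2, 103, 101 and 81.2 CPM in EV libraries, against 184, 231, 188 and 187 CPM in CV libraries. CV replicate 2 stood above the other CV libraries, and the groups did not overlap. Its log2 fold change was -1.07 ± 0.14 (SE, adjusted p = 2.02e-05), a level of 0.476 relative to CV.

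Acot8, the peroxisomal thioesterase, had 25.6, 25.6, 28.0 and 23.3 CPM in EV libraries, against 21.2, 28.4, 18.2 and 16.2 CPM in CV libraries. CV replicate 2 was the highest of the 8 libraries. On the log2 scale the change was 0.29 ± 0.15 (SE, adjusted p = 0.123), and without CV replicate 2 it was 0.47 and passed (adjusted p = 0.00699). In GENCODE M21, 246 bp of Acot8 exon overlap Snx21 on the opposite strand, and no source used here says how strand was handled. The upstream sequence of Acot8 is shown beside those of the ring genes because this gene did not fall. It held CCAAT, in capitals, at positions -155, -115 and -61, and no match to the other motifs searched. Among the matched genes not printed, Scp2, which fell, held AGGTCA at -109. Acox2, which did not pass, held CCAAT on the opposite strand at -36 in a single window. Whether these letters bear on the falls was not tested.
Acot8, chr2:164804882-164805131, minus strand: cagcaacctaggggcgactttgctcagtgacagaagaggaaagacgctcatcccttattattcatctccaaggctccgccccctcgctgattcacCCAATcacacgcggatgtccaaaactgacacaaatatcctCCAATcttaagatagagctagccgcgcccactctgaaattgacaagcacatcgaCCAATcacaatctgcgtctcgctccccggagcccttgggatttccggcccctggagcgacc

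Per kilobase of exon, the order of levels changed with EE. In EV libraries Scp2 was highest at 425 ± 11 CPM per kb and Akr1c6 next at 140 ± 21 (SD, n = 4). Hsd3b7 (59.9 ± 2.1), Hsd17b4 (56.1 ± 3.2), Baat (48.4 ± 5.1) and Slc27a5 (47.1 ± 3.1) followed, of which Baat and Slc27a5 differed by less than their SD. In CV libraries Scp2 (673 ± 55 CPM per kb), Akr1c6 (443 ± 61) and Slc27a5 (245 ± 20) held the first 3 places, clear of Hsd3b7 (123 ± 18). Acot8 was the lowest of the 10 in both groups, at 12.8 ± 0.96 CPM per kb in EV libraries and 10.5 ± 2.7 in CV libraries. Exon lengths are those of an earlier build and the counts may already be rescaled by length, so these levels are approximate.

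EM vs CM asked what EE changed in mice given the ligand, in 8 libraries other than those compared in EV vs CV. The TMM factors and the estimate of the spread came from all 16 libraries, so the p-values of these comparisons are not independent. Here 8 of the 10 genes fell and 0 rose, against 18.6% called lower and 19.4% called higher over all genes. The 8 were the 7 genes that fell in EV vs CV and Hsd17b4. In 7 of them every EM library lay below every CM library, which held for 16.8% of all genes; Amacr overlapped. Of the genes called lower in both comparisons, 6 of 7 had the larger fall in EV vs CV. At an unadjusted p under 0.05, and by DESeq2 and limma-trend, 0 genes were higher.

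Slc27a5 again fell furthest, at 137, 162, 195 and 213 CPM in EM libraries, against 511, 464, 683 and 641 CPM in CM libraries (log2 fold change -1.70 ± 0.14 SE, adjusted p = 8.65e-07). Akr1d1 had 61.2, 76.7, 90.5 and 93.4 CPM in EM libraries, against 111, 98.0, 185 and 169 CPM in CM libraries (-0.81 ± 0.22, adjusted p = 0.00832). Akr1c6 had 406, 416, 577 and 586.1 CPM in EM libraries, against 654, 747, 983 and 734 CPM in CM libraries (-0.65 ± 0.16, adjusted p = 0.00544). For both ring genes the gap between the groups was narrower than in EV vs CV, and EM replicates 3 and 4 came close to the lowest CM libraries.

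Hsd3b7 (-0.77 ± 0.15, adjusted p = 0.000733), Baat (-0.58 ± 0.14, adjusted p = 0.00494) and Scp2 (-0.47 ± 0.08, adjusted p = 0.000313) also fell. Hsd17b4 had 189, 246, 230.3 and 231 CPM in EM libraries, against 258, 338, 274 and 259 CPM in CM libraries (-0.33 ± 0.11, adjusted p = 0.0272). Its call was lost without EM replicate 1 (adjusted p = 0.0898) or CM replicate 2 (adjusted p = 0.091) and in a fit to these groups alone (adjusted p = 0.0629). Amacr fell by 0.38 on the log2 scale (adjusted p = 0.0229), a call lost without EM replicate 1, CM replicate 1 or CM replicate 3 (adjusted p = 0.0507 to 0.0771). Acox2 (-0.11 ± 0.15) and Acot8 (0.14 ± 0.15) did not pass. With library totals, under which the median of all genes shifted by 0.38, 2 genes were called lower, Slc27a5 (-1.33) and Hsd3b7 (-0.40), and 1 higher, Acot8 (0.51), while Hsd17b4 (0.041) and Acox2 (0.26) changed sign without a call. Over all genes 5889 were then higher and 935 lower, against 2509 and 2408 with the factors.

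**Figure D3:**
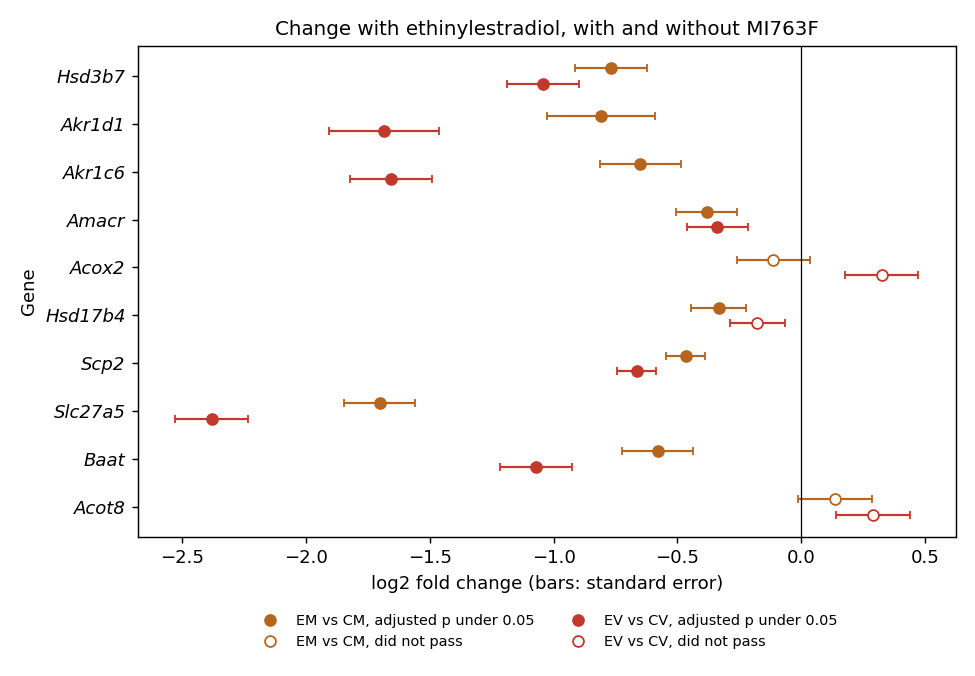
Log2 fold change with EE for each gene, with the standard error as bars, in mice given MI763F (EM vs CM) and in mice without it (EV vs CV); filled points had an adjusted p under 0.05. The points of Hsd3b7, Akr1d1, Akr1c6, Scp2, Slc27a5 and Baat lie further left in EV vs CV than in EM vs CM.

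EM vs EV asked what MI763F changed during EE treatment. With the ligand, Akr1c6 and Slc27a5 rose, so 2 of the 10 genes were called higher and 0 lower, against 1.51% and 0.178% over all genes. In 6 of the 10, namely Hsd3b7, Akr1d1, Akr1c6, Scp2, Slc27a5 and Baat, every EM library lay above every EV library, which held for 6.56% of all genes. The median log2 fold change of the 10 was 0.28, against 0.00 over all genes. At an unadjusted p under 0.05, 6 genes were higher and 0 lower, against 1642 of 12918 over all genes in either direction. DESeq2 called 3 genes higher, while limma-trend called 2. The count rests on single libraries: 3 of the 10 passed without EM replicate 1, 1 without EM replicate 2 or EV replicate 3, and 0 without EM replicate 3 or 4 or EV replicate 1, 2 or 4. Over all genes the share called ran from 0.278% without EV replicate 2 to 3.44% without EM replicate 1, so the share for all genes moved with the same libraries.

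Akr1c6 had 406, 416, 577 and 586.1 CPM in EM libraries, against 285, 239.5, 344 and 273 CPM in EV libraries. EM replicates 3 and 4 stood above replicates 1 and 2, and the lowest EM library lay above the highest EV library. The log2 fold change was 0.80 ± 0.16 (SE, adjusted p = 0.0262). The call was lost without EV replicate 1 (adjusted p = 0.0994), 2 (0.131) or 4 (0.0752), or without EM replicate 3 (0.107) or 4 (0.117), at log2 fold changes between 0.71 and 0.90 over all libraries left out.

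Slc27a5 had 137, 162, 195 and 213 CPM in EM libraries, against 106, 121, 121 and 111 CPM in EV libraries. All EM libraries lay above all EV libraries and below all CM and CV libraries. Its log2 fold change was 0.62 ± 0.14 (SE, adjusted p = 0.0402). This call was lost without any 1 of EV replicates 1 to 4 or EM replicates 2 to 4, at adjusted p between 0.0697 and 0.165 and log2 fold changes between 0.52 and 0.66. It was also lost in a fit to these groups alone (0.61, adjusted p = 0.0567). With library totals neither gene passed (Akr1c6 0.69, adjusted p = 0.0512; Slc27a5 0.51, adjusted p = 0.0999), under a shift of -0.11 in the median of all genes, and 75 genes were higher and 52 lower over all genes, against 195 and 23 with the factors.

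Akr1d1 had 61.2, 76.7, 90.5 and 93.4 CPM in EM libraries, against 47.0, 41.6, 53.2 and 36.8 CPM in EV libraries. The groups did not overlap, and the log2 fold change of 0.85 ± 0.22 (SE) missed the threshold (adjusted p = 0.0671). It passed without EM replicate 1 (0.96, adjusted p = 0.0304), the EM library nearest to the EV libraries on the leading component, in a fit to these groups alone (0.84, adjusted p = 0.0393) and with DESeq2 (0.85, adjusted p = 0.00562).

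Hsd3b7 had 177, 201, 251 and 259 CPM in EM libraries, against 166, 158, 168 and 171 CPM in EV libraries, and did not pass (0.42 ± 0.15 SE, adjusted p = 0.193). Baat had 107, 107, 127 and 134 CPM in EM libraries, against 91.2, 103, 101 and 81.2 CPM in EV libraries (0.34 ± 0.14, adjusted p = 0.326). Scp2 had 1628, 1606, 1793 and 1774 CPM in EM libraries, against 1421, 1480.2, 1499 and 1509 CPM in EV libraries (0.20 ± 0.08, adjusted p = 0.271). In these 3 genes the groups were apart by little, with the lowest EM library close to the highest EV library.

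Amacr (0.23 ± 0.12), Hsd17b4 (0.23 ± 0.11), Acox2 (-0.19 ± 0.15) and Acot8 (0.00 ± 0.15) overlapped between EM and EV and did not pass. In 7 of the 10 genes EM replicates 3 and 4 both lay above EM replicates 1 and 2. The exceptions were Amacr, Hsd17b4 and Acot8. The share of all genes with this order was not counted, so it cannot be called particular to these genes. On the leading component EM replicates 3 and 4 (38.6 and 37.1) also differed from replicates 1 and 2 (62.6 and 46.7).

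**Figure D4:**
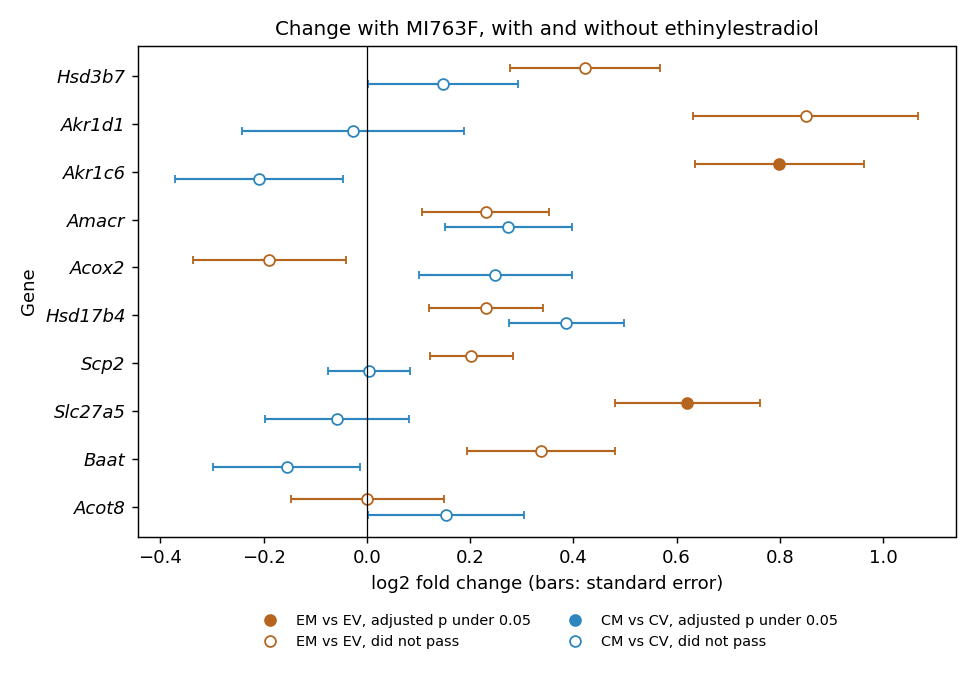
Log2 fold change with MI763F for each gene, with the standard error as bars, during EE (EM vs EV) and without it (CM vs CV); filled points had an adjusted p under 0.05. Akr1c6 (0.80) and Slc27a5 (0.62) are the filled points, both in EM vs EV.

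EM vs CV asked what remained different from vehicle with both treatments. Of the 10 genes 6 were lower and 0 higher, while 40.6% of all genes were called in either direction. In these 6 every EM library lay below every CV library, which held for 18.1% of all genes. They were Slc27a5 (-1.76 ± 0.14 SE, adjusted p = 5.94e-07), Akr1c6 (-0.86 ± 0.16, adjusted p = 0.000684), Akr1d1 (-0.83 ± 0.22, adjusted p = 0.00624), Baat (-0.73 ± 0.14, adjusted p = 0.000827), Hsd3b7 (-0.62 ± 0.15, adjusted p = 0.00315) and Scp2 (-0.46 ± 0.08, adjusted p = 0.000305). Relative to the CV level, Slc27a5 stood at 0.295 in EM and 0.192 in EV, Akr1c6 at 0.552 in EM and 0.317 in EV, and Akr1d1 at 0.561 in EM and 0.311 in EV. These comparisons share the CV libraries, so the pairs of values are not independent. With library totals Slc27a5 (-1.38), Akr1c6 (-0.48) and Baat (-0.36) were lower, and Acox2 (0.51), Hsd17b4 (0.43) and Acot8 (0.67) were higher, and 5979 genes were higher and 1000 lower over all genes, against 2668 and 2583 with the factors. At an unadjusted p under 0.05 the number higher was 0, as it was with DESeq2 and limma-trend, but Acot8 passed without CV replicate 2 (0.47, adjusted p = 0.0089).

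Without EE, the ligand changed none of the 10 genes by edgeR's test, against 0.0929% of all genes called in CM vs CV. At an unadjusted p under 0.05, Hsd17b4 and Amacr were higher and 0 lower, against 1362 of 12918 over all genes in either direction. DESeq2 called 1 gene, Hsd17b4 (0.39, adjusted p = 0.0421), and limma-trend called 0. Hsd17b4 had 258, 338, 274 and 259 CPM in CM libraries, against 182, 209, 238 and 235 CPM in CV libraries. All 4 CM libraries lay above all 4 CV libraries, which held for 2.24% of all genes. On the log2 scale the change was 0.39 ± 0.11 (SE, adjusted p = 0.223). Amacr had 98.3, 97.3, 104 and 80.0 CPM in CM libraries, against 78.1, 73.1, 77.7 and 85.0 CPM in CV libraries (0.27 ± 0.12, adjusted p = 0.448).

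The genes that rose in EM vs EV had fold changes near or below 0 in CM vs CV. Akr1c6 averaged 779 ± 142 CPM in CM and 900.0 ± 123 CPM in CV (SD, n = 4 each; log2 fold change -0.21 ± 0.16 SE), and Slc27a5 averaged 574.8 ± 104 CPM in CM and 598 ± 48 CPM in CV (-0.06 ± 0.14). The difference between the ligand's effects was itself tested as an interaction, (EM minus EV) minus (CM minus CV), which is also the difference between the EE effects with and without the ligand. It called 0 of the 10 genes, against 0.132% of all genes. The largest estimates were 1.01 ± 0.23 (SE) for Akr1c6 (adjusted p = 0.0745), 0.88 ± 0.31 for Akr1d1 (adjusted p = 0.21) and 0.68 ± 0.20 for Slc27a5 (adjusted p = 0.144). At an unadjusted p under 0.05, 4 genes passed, all with a positive difference, against 1759 of 12918 over all genes in either direction. DESeq2 called Akr1c6 and Slc27a5 and limma-trend called 0. Without EM replicate 1, Akr1c6 (1.09, adjusted p = 0.0323) and Slc27a5 (0.78, adjusted p = 0.0463) passed in edgeR's test as well.

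A ratio between 2 genes of the same library does not depend on how the library is scaled, so ratios were taken for 7 pairs of genes that stand next to each other in the pathway, a choice made with the values known. Baat counts per Slc27a5 count lay between 0.730 and 0.859 in EV libraries, against 0.285 to 0.386 in CV libraries. With the ligand the same ratio lay between 0.629 and 0.786 in EM libraries, against 0.280 to 0.333 in CM libraries. The groups were apart in both comparisons, so the levels of Slc27a5 lost more than those of Baat in these libraries under any scaling. Acot8 counts per Baat count lay between 0.248 and 0.287 in EV libraries, against 0.0862 to 0.123 in CV libraries. In EM libraries it lay between 0.182 and 0.263, against 0.0944 to 0.187 in CM libraries, and these overlapped.

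The mean log2 difference was 1.31 for Baat/Slc27a5 and 1.39 for Acot8/Baat in EV vs CV. In contrast, the ratio of Akr1c6 to Akr1d1 averaged 2.68 on the log2 scale in EV libraries and 2.67 in CV libraries, and these overlapped. The ratio of Akr1d1 to Hsd3b7 lay between 0.346 and 0.381 in EM libraries and between 0.215 and 0.316 in EV libraries, against 0.322 to 0.550 in CV libraries. In CM libraries it spanned 0.239 to 0.511, which overlapped each of the other 3 groups. Scp2 per Hsd17b4 lay between 7.45 and 8.51 in EV libraries and between 7.67 and 8.82 in CM libraries, against 10.1 to 11.9 in CV libraries. In EM libraries, at 6.54 to 8.60, it overlapped both the EV and the CM libraries.

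Of the 28 tests, 7 pairs in 4 comparisons, 9 reached the smallest two-sided p that an exact permutation test of 4 against 4 can give, 0.0286. After Benjamini-Hochberg adjustment over the 28 that p became 0.0889, so 0 passed the threshold.

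**Figure D5:**
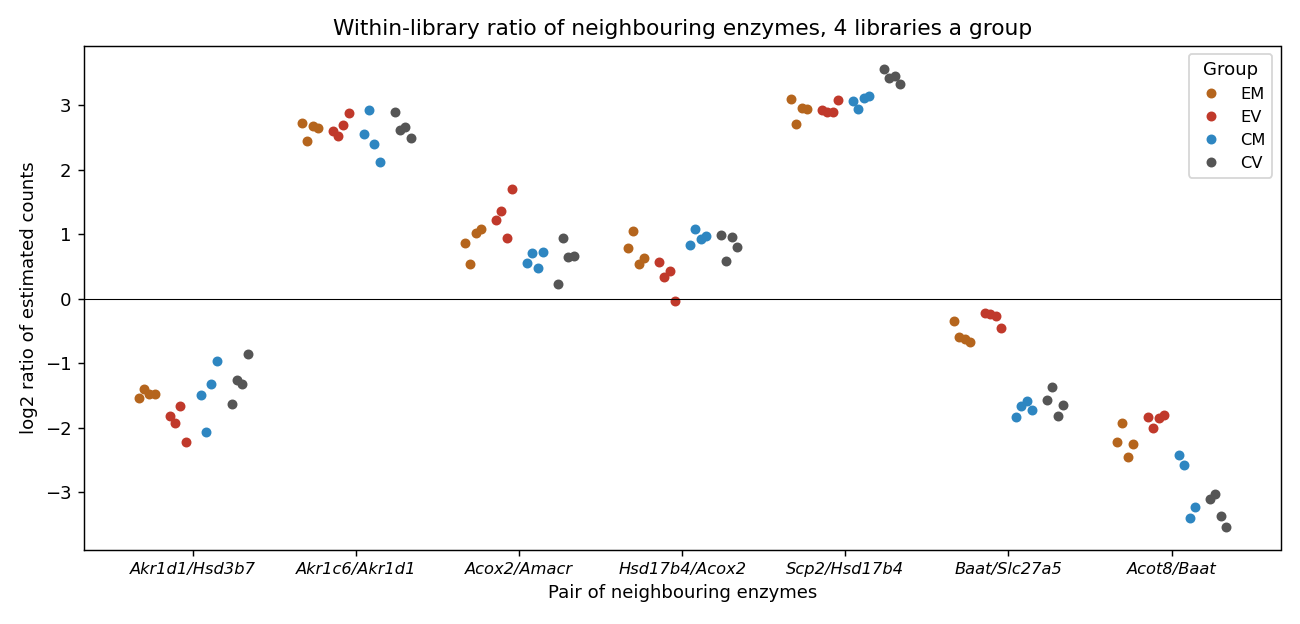
Log2 ratio of estimated counts within each library for 7 pairs of neighbouring enzymes, with 1 point a library and the groups side by side from EM to CV. The Baat/Slc27a5 points with EE (EM and EV) lie above those without it (CM and CV), while the Akr1c6/Akr1d1 points overlap in all 4 groups.

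Genes around these enzymes were counted from lists chosen with earlier results of these data known. The counts stand against 24.9% of all genes called lower and 25.5% called higher in EV vs CV. Among the sterol and oxysterol hydroxylases that open the pathway, 5 of 6 tested genes fell in EV vs CV and Cyp7b1, the oxysterol hydroxylase, rose (6.17 ± 0.19 SE); Cyp8b1, which adds the hydroxyl that makes cholic acid, was at -6.23 ± 0.67 (SE). Cyp39a1 (2.00 ± 0.35 SE, adjusted p = 0.00943) was the 1 called in EM vs EV, where it rose. Of 13 other enzymes that modify bile acids and steroids, 10 fell and 1 rose with EE, and Hsd11b1, which regenerates active glucocorticoid, was the 1 called higher in EM vs EV (0.77 ± 0.15, adjusted p = 0.0189). Hsd11b1 had a log2 fold change of -2.93 ± 0.16 in EV vs CV, and Rdh16, a retinol dehydrogenase, of -4.26 ± 0.36.

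Genes that supply taurine, the amino acid Baat uses most in mouse, gave 5 falls and 1 rise among 8 tested genes in EV vs CV, or 3 and 3 with library totals. Cdo1, the cysteine dioxygenase that starts taurine synthesis, averaged 946 ± 166 CPM in EV and 2160.4 ± 239 CPM in CV (log2 fold change -1.19 ± 0.18 SE). Cth, the cystathionine lyase upstream of it, fell by 1.79 and Slc6a13, a taurine and GABA carrier, by 1.12 on the log2 scale. The 1 rise was that of Csad, with 310 to 362 CPM in EV libraries, against 92.9 to 118 CPM in CV libraries. Csad had 318 to 620 CPM in EM libraries. In EM vs EV, Cth was at 0.70 ± 0.23 (adjusted p = 0.158), with the groups apart, and did not pass.

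Of 23 further tested genes of peroxisomal oxidation and acyl-CoA handling, for straight and branched chains, 19 fell and 1 rose in EV vs CV, or 10 and 2 with library totals. Pecr (-1.54 ± 0.13 SE), an enoyl-CoA reductase, Acot4 (-2.30 ± 0.19), a thioesterase, and Acsl1 (-1.69 ± 0.15), a fatty acyl-CoA synthetase, had the smallest p. The 1 rise with the TMM factors was that of Ehhadh. Ehhadh had 570 to 724 CPM in EV libraries and 352 to 430 CPM in EM libraries, against 86.7 to 179 CPM in CV libraries. In EM vs EV, Phyh, which starts the breakdown of phytanic acid, was at 0.54 ± 0.13 and just missed the threshold (adjusted p = 0.05004). Peroxisome biogenesis genes gave 6 falls and 1 rise among 16, with Pex7, the receptor for a class of imported enzymes, at -1.001 ± 0.12, but 2 falls and 8 rises with library totals, so their direction as a list rests on the scaling.

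Of 12 genes of the bile acid receptor axis, 9 fell and 0 rose in EV vs CV, or 5 and 1 with library totals. Rxra, the partner of some of these receptors, was at -0.73 ± 0.08 (SE), Nr5a2 at -1.04 ± 0.12 and the coreceptor Klb at -1.46 ± 0.18. In EM vs EV, Nr1h4, the bile acid receptor FXR, was at 0.47 ± 0.13 and did not pass (adjusted p = 0.0947).

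Markers of hepatocytes and of other cells moved in the same libraries. The 12 hepatocyte genes summed to between 48376 and 59062 CPM in EV libraries, against 107440 to 131420 CPM in CV libraries, with 9 called lower and 1 higher, or 7 and 2 with library totals. Alb alone held 22530 to 28959 CPM of the sum in EV libraries, against 53603 to 77124 CPM in CV libraries. Serpinc1 (-1.81 ± 0.10 SE), Apoa1 (-2.88 ± 0.22) and Ttr (-1.67 ± 0.15) fell. Tat, the 1 called higher, had 1555 to 1913 CPM in EV libraries, against 648 to 1569 CPM in CV libraries, which overlapped. In EM libraries the sum of the 12 was 54663 to 68489 CPM. Macrophage markers summed to between 2299 and 2689 CPM in EV libraries, against 383 to 985 CPM in CV libraries. Of the 12, 10 were higher, or 11 with library totals, and Clec4f was the most abundant. Cholangiocyte markers summed to between 173 and 250 CPM in EV libraries, against 41.1 to 58.7 CPM in CV libraries. Of 5 tested genes 3 were higher under both scalings. Spp1, the most abundant, held 117 to 183 CPM of the sum in EV libraries. Krt19 and Epcam were not called, and their groups overlapped. Krt19 had 0.681 to 1.75 CPM in EV libraries, against 0.550 to 2.67 CPM in CV libraries. Epcam had 1.37 to 1.65 CPM in EV libraries, against 1.49 to 2.14 CPM in CV libraries.

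Endothelial markers rose in 6 of 8 cases with 0 falls, lymphocyte and neutrophil markers in 4 of 6 and red cell markers in 5 of 5. Stellate markers gave 2 rises and 1 fall among 9. Over all genes 25.5% were called higher and 24.9% lower in EV vs CV. With library totals 8 endothelial, 5 lymphocyte and neutrophil, 5 red cell and 2 stellate markers were higher, and 0 were lower. Over all genes 7048 were then higher and 1329 lower. Endothelial markers summed to between 301 and 331 CPM in EV libraries, against 127 to 252 CPM in CV libraries. Lymphocyte and neutrophil markers summed to between 69.2 and 152 CPM in EV libraries, against 8.87 to 25.3 CPM in CV libraries. The neutrophil genes S100a9 (21.6 to 75.1 CPM) and S100a8 (18.6 to 49.1 CPM) held much of the sum in EV libraries. Among the lymphocyte genes, Cd3e had 0.827 to 1.63 CPM in EV libraries, against 0.356 to 0.993 CPM in CV libraries. These overlapped, as did Nkg7, while Cd79a was apart (4.83 to 7.61 CPM in EV, against 0.427 to 1.83 CPM in CV). Red cell markers summed to between 2527 and 3469 CPM in EV libraries, against 984 to 1967 CPM in CV libraries, and stellate markers to between 193 and 213 CPM in EV libraries, against 178 to 330 CPM in CV libraries, which overlapped. In EM libraries macrophage markers summed to 1894 to 3149 CPM and cholangiocyte markers to 116 to 216 CPM, both overlapping the EV libraries. Krt7 and Cftr of the cholangiocyte list and Cd3d, Ms4a1 and Ly6g of the lymphocyte and neutrophil list were not analysed here. The part of these shifts in the falls of the 10 genes was not tested.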

How the data were processed

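Per the labels' protocols, TRIzol extracts of liver were turned into poly(A) libraries with a NEBNext Ultra kit. GRCm39, STAR and Salmon are named, without versions or roles, in the submitters' processing notes; the sources used here give no annotation, counting step or use of strand. What the authors deposited are estimated counts in whole numbers for 13006 genes in 16 libraries. Among 731 genes at 0 in at least 1 library (82.9% with an exon length), the median smallest nonzero value was 101.5 under 150 bp of exon and 1 over 4000 bp, so a value of 1 does not stand for 1 read throughout. Symbols came from GENCODE M21, an earlier build, and matched 12692 identifiers. No pair of libraries shared more than 3.24% of its values.

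Groups, replicate numbers, doses and days came from the labels. After filterByExpr, 12918 genes remained. TMM-scaled counts of all 16 libraries were modelled by group with edgeR 4.0.16 (R 4.3.3; robust glmQLFit) in 6 contrasts. An SE is the log2 fold change over the root of its F value. The procedure was tested on simulated counts. Alternatives were RLE factors, library totals, no filter, 1 CPM in 8 libraries, DESeq2 1.42.0, limma-trend (limma 3.58.1), a fit to the compared groups alone, a replicate block, and each library left out. Ratios of estimated counts were tested with exact two-sided permutation tests in scipy 1.17.1. Named genes beyond the 10 were the 3 of each list with the smallest p in EV vs CV and the 2 with the smallest p in EM vs EV, of which some are printed, and of each marker list the gene with the highest mean CPM. The other Akr1c genes, Krt19, Epcam, Csad, Ehhadh, Alb, Tat, S100a8, Cd3e, Nkg7 and Cd79a were named after their values were seen. Members were listed by function, and members, lists and ratio pairs were chosen with earlier results of these data known. Figures were drawn with matplotlib 3.10.9.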

Additional observations from a re-analysis of the deposited data

Results flagged for a closer look

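In 2 of the 40 sets of 4 libraries examined (10 genes in 4 groups), a value lay far from the others by Dixon's criterion at the 95% level. Chance alone flags about 1 set in 20. Akr1d1 in CV replicate 1 was 97.2 CPM, against 153 to 162 CPM in the other CV libraries. Without that library the log2 fold change of Akr1d1 was -1.83 (EV vs CV) and -0.98 (EM vs CV). Baat in CV replicate 2 was 231 CPM, against 184 to 188 CPM in the other CV libraries. Without that library the log2 fold change of Baat was -0.99 (EV vs CV) and -0.65 (EM vs CV), and these calls held.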

How the results depend on the processing

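Of the 10 genes, the numbers called in EV vs CV, in either direction, stayed between 6 and 8 under every alternative run. The directions did not stay the same: with library totals 5 were lower and 3 higher, against 7 and 0 with the TMM factors. Over all genes the share called in EV vs CV was 50.4%. It ran from 45.3% without EV replicate 2 to 64.8% with library totals. With library totals 3 were called in EM vs CM and 0 in EM vs EV. DESeq2 called 1 in CM vs CV and 2 in the interaction. Leaving out 1 library gave 0 to 3 in EM vs EV and 0 to 2 in the interaction. Of all genes with an adjusted p, 0.0929% were called in CM vs CV, against 1.84% with DESeq2, 0.0161% with only the groups compared and 0.0309% to 0.301% with 1 library left out. In EM vs EV the share was 1.69%, against 0.983% with library totals, 4.53% with DESeq2 and 0.278% to 3.44% with 1 library left out. In the interaction it was 0.132%, against 0.201% with library totals, 3.57% with DESeq2, 0.232% with limma-trend and 0.0772% to 1.61% with 1 library left out. Library totals reversed Amacr (0.14) and Hsd17b4 (0.31) in EV vs CV, Acox2 (0.26) and Hsd17b4 (0.041) in EM vs CM, Amacr in EM vs CV (0.27) and Acot8 in EM vs EV (-0.11). Acot8 in EM vs EV, near 0 throughout, was also below 0 with the stricter filter (-0.000579), limma-trend (-0.00245) and only the groups compared (-0.00710), and lay between -0.052 and 0.049 with 1 library left out. With 1 library left out, uncalled values crossed 0 for Akr1d1 (-0.19 to 0.11), Scp2 (-0.046 to 0.058) and Slc27a5 (-0.15 to 0.032) in CM vs CV, Hsd17b4 in EM vs CV (-0.020 to 0.13) and Amacr in the interaction (-0.12 to 0.085). The causes were not tested beyond what each alternative changes.

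Replicate numbers shared between groups did not pair the libraries: deviations of same-numbered libraries correlated at -0.052 to 0.096 over 24 pairs. With the replicate block, 0.0464% of all genes were called in CM vs CV, 0.612% in the interaction, 2.01% in EM vs EV and 49.5% in EV vs CV. Of the 10 genes 1 passed in the interaction, 3 in EM vs EV and 8 in EV vs CV. The calls gained were rises of Acox2 in EV vs CV (0.33, adjusted p = 0.0413) and of Akr1d1 in EM vs EV (0.82, adjusted p = 0.0387), and Akr1c6 in the interaction (1.01, adjusted p = 0.028).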

Other observations

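Akr1c18, which inactivates progesterone and belongs to the same gene family as Akr1c6, was low without EE and moved against its relatives; it was singled out after its values were seen. It averaged 7.01 ± 2.9 CPM in EM, 9.11 ± 2.0 CPM in EV, 0.124 ± 0.10 CPM in CM and 0.205 ± 0.26 CPM in CV (SD, n = 4 each). Libraries without EE held 0 to 7 estimated counts of it, so its fold change in EV vs CV (log2 5.51 ± 0.70 SE, adjusted p = 1.25e-05, edgeR's quasi-likelihood test) rests on few counts and is approximate. In the same comparison Akr1c20 (-2.06 ± 0.21), Akr1c19 (-1.25 ± 0.24), Akr1c13 (-0.87 ± 0.11) and Akr1c12 (-0.86 ± 0.13) fell, and Akr1c14 (-0.49 ± 0.22, adjusted p = 0.0742) did not pass. In EM vs EV the adjusted p of Akr1c18 and of these 5 genes lay between 0.093 and 0.841. Reads of these close relatives may be divided among them with error.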
